A study of Mus musculus with 6 samples.

Results

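The genes described here encode potassium channels and their dedicated subunits. They comprise 73 mouse genes whose symbol in the array's probe table begins with Kcn, of 14860 genes that had a row with a single symbol. One gene, Kcnc1, had 2 rows, and the row with the higher mean over all arrays stood for it. Potassium channel genes without such a row were not analysed here. The levels come from lumbar motor neurons of embryos on embryonic day 12 (E12), measured on 6 arrays, 3 of medial and 3 of lateral motor neurons. All embryos carried the transgene HB9::GFP of the line mHB9-Gfp1b, in which sequences of the motor neuron gene HB9 (Mnx1) drive green fluorescent protein, so cells of either group were collected only where this reporter was on. The cord columns were dissected, dissociated and sorted by fluorescence, and no treatment was applied. Medial neurons serve trunk muscle and lateral neurons serve limb muscle. The titles call the arrays biological replicates and do not say whether they came from separate litters or how many embryos were pooled, so p-values reflect how far these 6 samples spread, which may be technical.

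Potassium channels let potassium leave or enter the cell and thereby set the resting potential, the threshold and the shape and spacing of action potentials. Voltage-gated (Kv) channels are assembled from pore subunits of the Kcna, Kcnb, Kcnc, Kcnd, Kcnh and Kcnq families, some of which combine with silent modifier subunits or with cytoplasmic and membrane-bound auxiliary subunits. Inward rectifiers (Kcnj) and tandem pore channels (Kcnk) hold the resting potential, and calcium-activated channels (Kcnn, Kcnma and Kcnmb) link firing to calcium entry. In motor neurons, potassium currents are known to grow during embryonic and early postnatal maturation and to shape the firing pattern of mature cells.

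The deposited values are on a log2 scale, from 2.49 to 14.1 over 23332 rows, and the medians of the arrays lay between 6.73 and 6.84. Pairs of arrays correlated over all rows with r from 0.987 to 0.993 within a group and from 0.980 to 0.988 between groups. The column labels were checked with identity genes: Lhx3 and Mecom, transcription factor genes of the medial column, were 9.41-fold and 9.71-fold above their lateral level in medial neurons, and Etv4 and Foxp1 were 5.8-fold and 8.01-fold above their medial level in lateral neurons (limma, adjusted p from 5.89e-05 to 0.00102). These were the 2 genes with the smallest p of each list of 4. Of the rest, Lhx4 was higher in medial neurons, Lhx1 and Aldh1a2 were higher in lateral neurons, and all of them passed. Prdm16, of the medial list, did not pass (1.26-fold higher in medial neurons, limma adjusted p = 0.241). The table has no detection calls. As a bound for background, the 95th percentile of 801 rows of olfactory and vomeronasal receptor genes was taken, which was 6.13. All 6 endothelial and all 3 measured erythroid marker genes had means below it, as did 5 of 6 myeloid and 4 of 6 glial ones. Above it were 5 of 9 progenitor, 4 of 9 interneuron, 2 of 3 sensory neuron, 3 of 6 pericyte, 4 of 6 mesenchyme and 4 of 6 skeletal muscle genes. All 8 genes of motor neurons in general were above it, and 5 of them passed: Isl2 and Mnx1, the gene of HB9 itself, were 2.98-fold and 2.67-fold higher in medial neurons, and Prph, Ret and Isl1 were 3.15-fold, 2.36-fold and 1.56-fold higher in lateral neurons. The mean log2 level over the 11 measured genes of differentiated neurons ranged from 12.38 to 12.42 in the medial and from 12.34 to 12.38 in the lateral samples. Among the genes of differentiated neurons, Rbfox3 was 1.43-fold higher in medial neurons and the other 10 did not pass. Among the marker genes of other cell types, the progenitor gene Sox2, the interneuron gene Slc17a6, the endothelial gene Cldn5 and the mesenchyme gene Dcn were higher in the medial samples. Each was the 1 gene of its list that passed, out of 9, 9, 6 and 6 measured. Their lateral means lay within background, and so did the medial mean of Cldn5 (6.05). The pericyte gene Rgs5 was 3.4-fold higher in the lateral samples, and with it the mean log2 level of the 6 pericyte genes was 6.01 to 6.05 in the medial and 6.33 to 6.45 in the lateral samples, while the other 5 did not pass, with log2 differences from −0.14 to −0.02. The part of these cells, and of the difference in Mnx1, in the differences given here was not tested. In bulk samples, fewer cells of a type with a transcript and less of it per cell cannot be told apart.

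The comparison asked which of these genes differ between medial and lateral motor neurons. Of the 73 genes, 9 passed limma's test at an adjusted p of 0.05 over all rows, 8 of them lower and 1 higher in the medial samples. Among all rows 3.07% passed, 1.94% as lower and 1.13% as higher, against 12.3% of the potassium channel genes. All rows include many within background and many without a gene name. Of rows with a mean above the background bound 4.59% passed, against 16.3% of the 49 potassium channel genes above it. The genes lower in medial neurons were Kcnh1, Kcnip4, Kcnq3, Kcnh7, Kcna6, Kcnd3, Kcna4 and Kcnv1, all of which encode parts of voltage-gated channels. The gene higher in medial neurons was Kcnip3, an auxiliary subunit of the same channel class. With the replicate number as a block in the fit, 5 genes passed, all lower in medial neurons. Kcnip3, Kcna4, Kcnh7 and Kcnd3 then did not pass. None of the 14 inward rectifier genes, 10 tandem pore genes and 9 Kcnn, Kcnma, Kcnmb and Kcnu genes passed in limma. Of these, 2, 0 and 2 had an unadjusted p under 0.05. The median log2 difference of the 73 genes, medial minus lateral, was −0.04, and that of all rows was 0.02. Before adjustment 20 of the 73 had a p under 0.05, against 3130 of the 23332 rows.

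A fold of at least 1.5 was reached by 10 of the 73 genes, or 13.7%, against 5.52% of all rows. Of these, 8 also passed the test, where 2.69% of all rows met both conditions, and Kcnn3 and Kcnj2 did not pass. Kcnip3 passed with a fold of 1.46. Medial values lay entirely above or below the lateral ones in 26 of the 73 genes, 19 lower and 7 higher in medial neurons, a share of 35.6% against 19.3% of all rows. By signal, 46 of the genes had means above the background bound in both groups, 23 in neither, and 4 in 1 group: Kcnh1 and Kcna4 lay within background in the medial samples, and Kcnj2 and Kcnj14 did so in the lateral samples. For these 4 the fold can understate the difference. The number of genes that passed depended on the arrays: it was 3, 2 and 3 without medial replicate 1, 2 or 3, and 5, 3 and 8 without lateral replicate 1, 2 or 3, and over all rows the count fell at the same time from 717 to between 326 and 538.

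**Figure D1:**
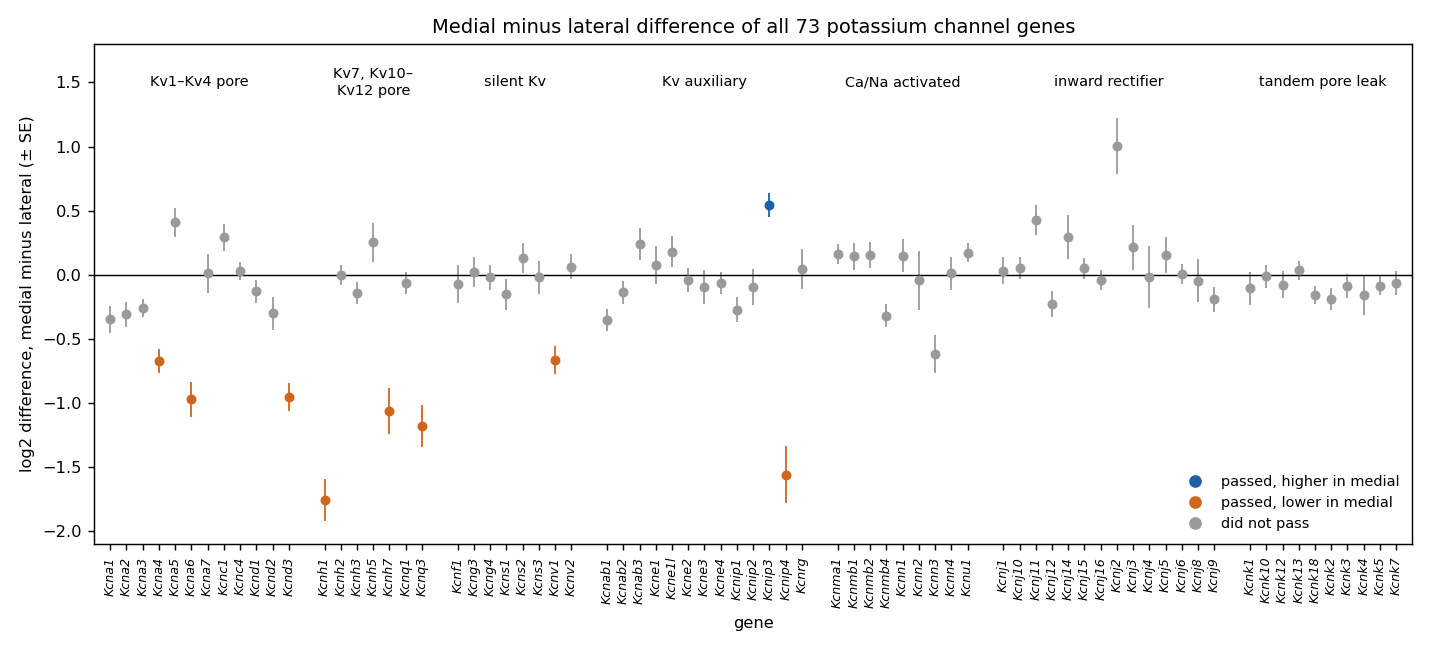
Log2 difference, medial minus lateral, of each of the 73 potassium channel genes (points) with its standard error from limma (bars), grouped by channel class along the x axis. The class labelled Ca/Na activated holds the Kcnn, Kcnma, Kcnmb and Kcnu genes and no sodium-activated channel gene. The 8 genes that passed as lower (orange) lie between −1.75 and −0.67 and belong to the voltage-gated classes, the 1 that passed as higher (blue) is Kcnip3 at 0.54, and the 64 others (grey) did not pass.

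**Figure D2:**
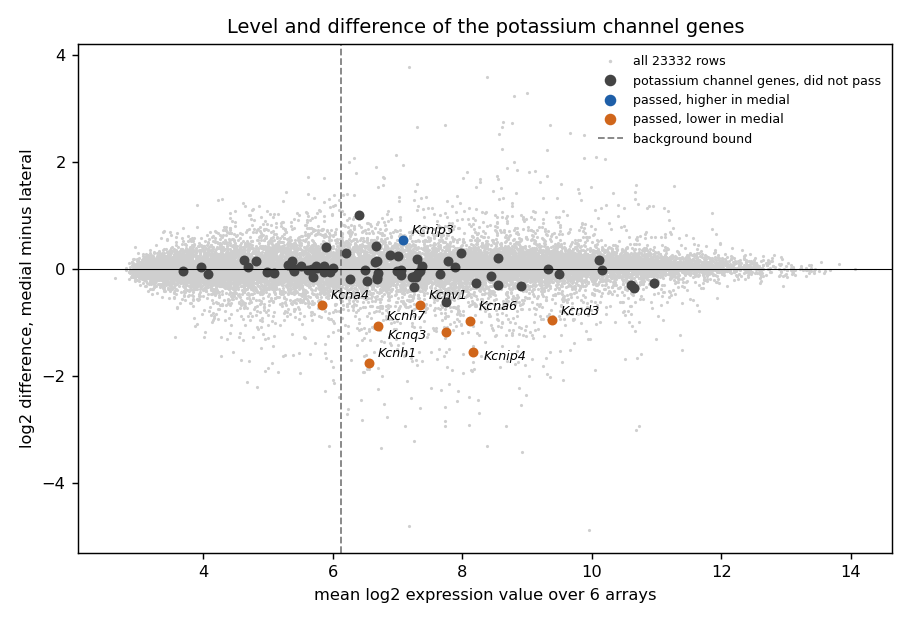
Mean log2 expression value over the 6 arrays (x axis) against the log2 difference, medial minus lateral (y axis), for all 23332 rows (light grey) and the potassium channel genes (large points). The dashed line marks the background bound of 6.13, and Kcna4 is the one gene among the 9 that passed whose mean over all arrays lies to the left of it.

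Kcnh1, which encodes the ether-à-go-go channel, had the largest difference of the 73 genes. Its log2 values were 5.80, 5.61 and 5.64 in medial replicates 1, 2 and 3 and 7.79, 7.25 and 7.26 in lateral replicates 1, 2 and 3. All lateral values stood above all medial ones, and lateral replicate 1 stood above the other two. The level was 3.37-fold higher in lateral than in medial neurons (log2 difference −1.75 ± 0.16, SE, limma adjusted p = 0.00351). Kcnd3, which encodes a pore subunit of fast-inactivating A-type channels of the Shal family, had values of 8.98, 8.77 and 8.97 in the medial and 9.87, 10.02 and 9.70 in the lateral samples, again without overlap. It was 1.94-fold higher in lateral than in medial neurons (log2 difference −0.95 ± 0.11, SE, limma adjusted p = 0.00822). Of the 9 genes that passed, Kcnh1 and Kcnd3 were the 2 whose calls held whichever single array was left out, with adjusted p-values up to 0.0267 and 0.0429. With the replicate number as a block Kcnh1 still passed (limma adjusted p = 0.0133) and Kcnd3 did not (0.0537).

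The promoter sequences of these 2 genes are shown because their calls did not end when any single array was left out. They are the 250 bases before the start of the gene on its own strand, 5′ to 3′, from RefSeq in build GRCm38.p6, at chr1:192190527-192190776 (+ strand) for Kcnh1 and chr3:105451640-105451889 (+ strand) for Kcnd3. Capitals mark the GC box GGGCGG on either strand, which occurred 1 time in the first and 0 times in the second.
Kcnh1: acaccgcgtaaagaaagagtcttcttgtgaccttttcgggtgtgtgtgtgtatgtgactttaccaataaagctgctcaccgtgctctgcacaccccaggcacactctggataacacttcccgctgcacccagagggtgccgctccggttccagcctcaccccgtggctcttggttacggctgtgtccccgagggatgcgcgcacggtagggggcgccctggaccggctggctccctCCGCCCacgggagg
Kcnd3: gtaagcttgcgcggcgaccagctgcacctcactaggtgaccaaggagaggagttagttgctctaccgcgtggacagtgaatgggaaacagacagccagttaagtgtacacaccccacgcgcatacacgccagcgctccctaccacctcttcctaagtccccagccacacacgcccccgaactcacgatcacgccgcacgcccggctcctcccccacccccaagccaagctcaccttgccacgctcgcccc
Both windows are rich in G and C, with 62% and 62.8% of bases and 17 and 18 CG dinucleotides. The median over all 32851 RefSeq promoter windows of this length was 52.4% with 6 CG dinucleotides, and over the 79 windows of potassium channel genes it was 58.8% with 8. Of the 73 genes, 58 matched a promoter by symbol. GGGCGG, a motif chosen after the values were seen, was found in 36 of the 58 genes, or 62.1%, against 35.4% of all genes with a promoter window. It was found in 4 of 7 genes that passed and matched. A gene counted for a motif where any of its windows held it. The 58 genes had 79 windows and all 27025 genes had 32851. Windows per gene and base composition thus differed, and the shares are not like for like. TAATTA, the core of many homeodomain sites, and TGTTTAC, a forkhead site, were searched on both strands as well and were found in 0 of the 58 genes, against 5.65% and 3.54% of all genes. None of these motifs contains another.

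The Kcnh family also comprises the erg and elk channels, and the Kcnq family makes the slow M-type current that restrains repetitive firing. Of the 5 Kcnh genes 2 passed, both lower in medial neurons, and 3 did not pass, and of the 2 Kcnq genes 1 passed as lower. Kcnh7, an erg channel gene, had values of 6.34, 5.94 and 6.21 in the medial and 7.50, 7.29 and 6.89 in the lateral samples, without overlap, and the medial mean of 6.16 lay just above the background bound. Its level was 2.09-fold higher in lateral than in medial neurons (log2 difference −1.06 ± 0.18, SE, limma adjusted p = 0.032), and the call ended without any one array other than lateral replicate 3 (adjusted p up to 0.12). Kcnq3, which encodes a pore subunit of the M-type channel, stood at 7.25, 7.02 and 7.20 in the medial and 8.67, 8.22 and 8.11 in the lateral samples. Every lateral value was above every medial one, with lateral replicate 1 the highest. The lateral level was 2.26-fold higher (log2 difference −1.18 ± 0.16, SE, limma adjusted p = 0.015), a call that ended without any one medial array or lateral replicate 2 (adjusted p up to 0.0694).

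Other members of both families gave smaller differences. Kcnh2, an erg channel gene best known from cardiac repolarisation, had values from 9.27 to 9.37 in the medial and from 9.26 to 9.41 in the lateral samples, and a log2 difference of −0.0037 ± 0.08. Kcnh3, an elk channel gene, and Kcnh5, the paralog of Kcnh1, had log2 differences of −0.14 ± 0.09 and 0.25 ± 0.15 (SE, limma adjusted p = 0.567 for both), with overlapping groups. Kcnh1 and Kcnh5, the 2 ether-à-go-go genes, therefore had differences of opposite sign, of which that of Kcnh5 did not pass. Kcnq1, whose channel is best known from heart and epithelia, lay within background in both groups, with a difference of −0.06 ± 0.09.

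The Kcna (Shaker) genes encode low-threshold delayed rectifiers and an A-type subunit, which in mature neurons sit largely on axons. Of 7 measured genes 2 passed, both lower in medial neurons, and 5 did not pass. Kcna6, a delayed rectifier subunit, had values of 7.71, 7.53 and 7.64 in the medial and 8.84, 8.61 and 8.35 in the lateral samples. The lateral samples were thus higher throughout, by 1.96-fold on average (log2 difference −0.97 ± 0.14, SE, limma adjusted p = 0.0164). Kcna4, the A-type subunit of this family, stood at 5.44, 5.39 and 5.66 and 6.21, 6.16 and 6.13, with medial values within background and lateral values at its edge. Its lateral level was 1.59-fold higher (log2 difference −0.67 ± 0.09, SE, limma adjusted p = 0.0164). The call of Kcna6 ended without any one medial array or lateral replicate 2, and that of Kcna4 without the first or the second array of either group, with adjusted p-values up to 0.0762 and 0.0759.

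Of the 5 Kcna genes that did not pass, 4 had non-overlapping groups as well, where 19.3% of all rows did. These 4 did not share a direction. Kcna1 and Kcna2, subunits of juxtaparanodal axonal channels in mature nerve, had values from 7.01 to 7.16 and from 8.33 to 8.48 in the medial samples and from 7.28 to 7.60 and from 8.57 to 8.83 in the lateral samples. Their log2 differences were −0.34 ± 0.10 and −0.31 ± 0.10 (SE, limma adjusted p = 0.206 and 0.213). Kcna3, known from lymphocytes as well as neurons, had a difference of −0.26 ± 0.07 with an adjusted p of 0.158 in limma. Kcna5, known from the atrium of the heart, went the other way at 0.41 ± 0.12 with both means within background, and Kcna7, a muscle and heart subunit, was at 0.01 ± 0.15, also within background. In the RefSeq annotation Kcna5, Kcna1 and Kcna6 follow each other on chromosome 6 with no other protein-coding gene between them, and so do Kcna3 and Kcna2 on chromosome 3. The log2 differences along the chromosome 6 cluster were 0.41, −0.34 and −0.97, of which the last passed.

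**Figure D3:**
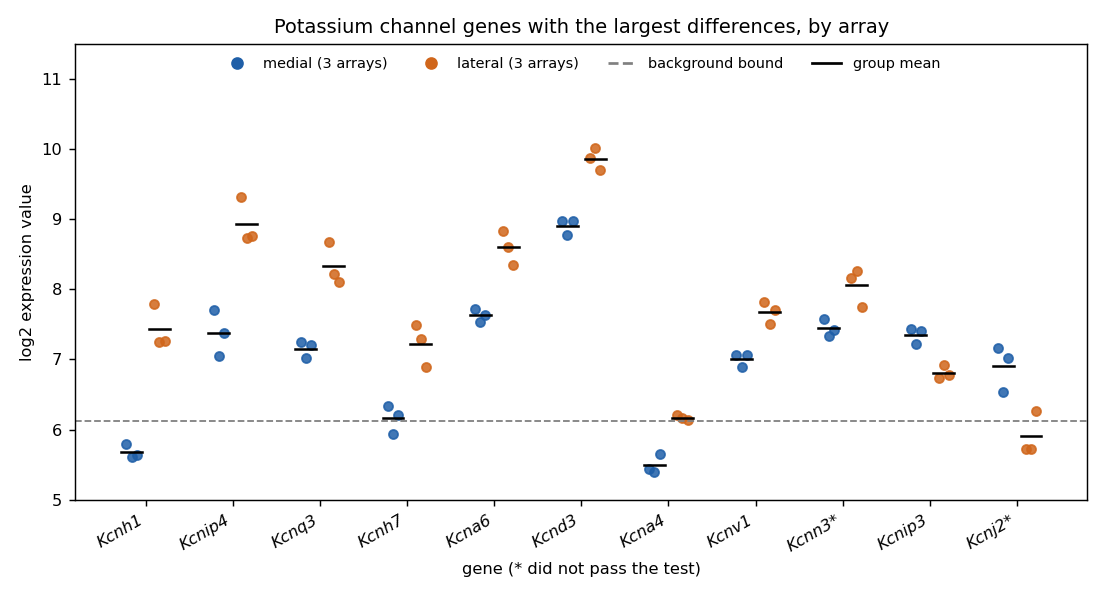
Log2 expression value (y axis) on each of the 3 medial (blue) and 3 lateral (orange) arrays for the 9 genes that passed and for Kcnn3 and Kcnj2, which had a fold of at least 1.5 and did not pass, ordered by their difference. Black bars are group means, the dashed line is the background bound of 6.13, and in each of the 11 genes the medial and lateral points do not overlap.

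The Kcnd (Shal) genes encode the A-type channels of cell body and dendrites, which delay the first spike. All 3 had lower means in the medial samples, and of these Kcnd3, described above, passed. Kcnd2 stood at 10.62, 10.34 and 10.43 in the medial and 10.94, 10.55 and 10.80 in the lateral samples. Medial replicate 1 lay above lateral replicate 2, so the groups overlapped, and the log2 difference of −0.30 ± 0.13 did not pass (limma adjusted p = 0.386). Kcnd1 had a difference of −0.13 ± 0.09. The Kcnc (Shaw) genes, whose channels let neurons fire fast, gave no gene that passed in limma, and 1 of the 2, Kcnc1, had an unadjusted p under 0.05. Kcnc1 had values of 8.20, 8.01 and 8.17 in the medial and 7.996, 7.73 and 7.78 in the lateral samples (log2 difference 0.29 ± 0.10, SE, limma adjusted p = 0.283). The other row of Kcnc1, which had lower signal, gave 0.41 ± 0.14 and did not pass either (limma adjusted p = 0.248). Kcnc4 had a difference of 0.03 ± 0.07.

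Auxiliary subunits held both the second largest difference and the 1 gene that was higher in medial neurons. The Kcnip genes encode calcium-binding proteins that attach to Kcnd pore subunits and modulate their surface number and current. Kcnip4 had values of 7.71, 7.04 and 7.38 in the medial and 9.31, 8.73 and 8.77 in the lateral samples. The groups were far apart, yet the values within the medial group ranged over 0.67 on the log2 scale and those within the lateral group over 0.58. The lateral level was 2.95-fold higher (log2 difference −1.56 ± 0.22, SE, limma adjusted p = 0.0173), and the call was lost when medial replicate 2, medial replicate 3 or lateral replicate 2 was dropped (adjusted p up to 0.0797). Kcnip3, whose protein is also known as calsenilin and as the transcriptional repressor DREAM, stood at 7.43, 7.22 and 7.41 in the medial and 6.74, 6.91 and 6.78 in the lateral samples, so here the medial samples were higher throughout. The fold was 1.46 (log2 difference 0.54 ± 0.09, SE, limma adjusted p = 0.0349), and the call ended without any one of the 6 arrays (adjusted p from 0.0563 to 0.153).

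The other 2 Kcnip genes did not pass. Kcnip1 had values of 10.92, 10.74 and 10.80 in the medial and 11.15, 10.95 and 11.18 in the lateral samples. All lateral values lay above the medial ones, with a log2 difference of −0.27 ± 0.10 (SE, limma adjusted p = 0.282). Kcnip2 was at −0.10 ± 0.14 with overlapping groups. Among the cytoplasmic beta subunits of Kcna channels, Kcnab1 had medial values of 10.48, 10.47 and 10.48 and lateral values of 10.90, 10.70 and 10.88, without overlap. Its log2 difference of −0.35 ± 0.08 did not pass (limma adjusted p = 0.103), and it passed in 4 of 9 alternative fits that kept all arrays and the threshold (adjusted p from 0.0331 to 0.154). Kcnab2 and Kcnab3 were at −0.14 ± 0.09 and 0.24 ± 0.13. The single-span Kcne subunits, known from heart and epithelia, had differences from −0.10 to 0.18, and 4 of 5 lay within background in both groups. The exception was Kcne1l, with values from 7.34 to 7.42 in the medial and from 6.95 to 7.35 in the lateral samples. Kcnrg, which encodes a regulator that interferes with Kcna channel assembly, was at 0.05 ± 0.16.

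Silent modifier subunits form no channel of their own and change the gating and trafficking of the pore subunits they join. Of 8 measured genes, Kcnv1 passed. It stood at 7.07, 6.90 and 7.07 in the medial and 7.82, 7.50 and 7.71 in the lateral samples, which did not overlap. It was 1.59-fold higher in lateral than in medial neurons (log2 difference −0.67 ± 0.11, SE, limma adjusted p = 0.0281), and of the 6 fits with an array left out the call held in the 1 without lateral replicate 2 (adjusted p up to 0.104). The differences of Kcnf1, Kcng3, Kcng4, Kcns1, Kcns2, Kcns3 and Kcnv2 lay between −0.15 and 0.13 with overlapping groups, and Kcng3 and Kcnv2 were within background in both groups.

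The Kcnn, Kcnma, Kcnmb and Kcnu families gave no gene that passed in limma, and 2 of 9, Kcnn3 and Kcnmb4, had an unadjusted p under 0.05. Kcnn3, a small-conductance channel gene of the family that sets the afterhyperpolarisation of motor neurons, had values of 7.57, 7.34 and 7.43 in the medial and 8.16, 8.26 and 7.76 in the lateral samples. The groups did not overlap, and lateral replicate 3 was closest to the medial values. The lateral level was 1.53-fold higher (log2 difference −0.62 ± 0.15, SE, limma adjusted p = 0.112), which passed without lateral replicate 3 (adjusted p = 0.0312) and in 3 of 9 alternatives that kept all arrays (0.0344 to 0.149). Kcnn1 and Kcnn2, of the same family, were at 0.15 ± 0.13 and −0.04 ± 0.23. In Kcnn2 replicate 1 was the highest sample of either group, at 7.74 in the medial and 7.73 in the lateral samples against 7.06 to 7.28 in the other 4. Kcnn4, known from blood cells and epithelia, lay within background.

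For the large-conductance channel, the pore gene Kcnma1 stood at 10.20, 10.18 and 10.23 in the medial and 10.10, 10.10 and 9.92 in the lateral samples. The medial values were slightly higher throughout, with a log2 difference of 0.16 ± 0.08 that did not pass (limma adjusted p = 0.474). Its beta subunit gene Kcnmb4, the neuronal one, had medial values of 8.83, 8.65 and 8.78 and lateral values of 9.11, 8.97 and 9.14, and the difference of −0.32 ± 0.09 did not pass either (limma adjusted p = 0.164). Kcnmb1, known from smooth muscle, and Kcnmb2 were at 0.14 ± 0.11 and 0.16 ± 0.10, and Kcnu1, known from sperm, was at 0.17 ± 0.08. Of these 3, Kcnmb1 and Kcnu1 lay within background in both groups.

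Of the 14 inward rectifier genes, 7 lay within background in both groups and 2 more did so in the lateral samples. Kcnj2, a strong inward rectifier that stabilises the resting potential, had the largest difference among genes with higher medial levels. Its values were 7.17, 6.54 and 7.02 in the medial and 5.73, 5.73 and 6.26 in the lateral samples. The groups did not overlap, but medial replicate 2 and lateral replicate 3 lay only 0.28 apart. The medial level was 2.01-fold higher (log2 difference 1.01 ± 0.22, SE) and did not pass (limma adjusted p = 0.0763), whereas it passed in 4 of 9 alternatives that kept all arrays and in 0 of 6 with an array left out (adjusted p from 0.0182 to 0.0846 and from 0.0565 to 0.254). Of the other genes of strong rectifiers, Kcnj12, Kcnj14 and Kcnj4 were at −0.23 ± 0.10, 0.30 ± 0.17 and −0.02 ± 0.24.

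Subunits of the channels that close with cellular ATP, Kcnj11 and Kcnj8, had differences of 0.43 ± 0.12 and −0.04 ± 0.17. Kcnj11 stood at 6.95, 6.79 and 6.89 in the medial and 6.27, 6.41 and 6.66 in the lateral samples, higher in all medial samples (limma adjusted p = 0.158). Among genes of channels opened by G proteins, Kcnj3 had values from 8.53 to 8.82 in the medial and from 8.24 to 8.82 in the lateral samples, and a difference of 0.21 ± 0.18. Its partners Kcnj5 and Kcnj6 lay within background in both groups, and Kcnj9 was at −0.19 ± 0.10. Kcnj1 of the kidney, Kcnj10 of glia, and Kcnj15 and Kcnj16 were also within background, with differences from −0.04 to 0.05.

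The tandem pore genes encode the channels of the leak current. None of 10 passed in limma, 0 had an unadjusted p under 0.05, and the differences ranged from −0.19 to 0.03. Kcnk3, which encodes an acid-sensitive leak channel, had values of 9.48, 9.56 and 9.29 in the medial and 9.58, 9.56 and 9.46 in the lateral samples. Kcnk10, which encodes a mechanically and lipid-sensitive leak channel, stood at 10.21, 10.05 and 10.21 and 10.28, 10.13 and 10.09. In both genes the groups overlapped, and the differences were −0.09 ± 0.09 and −0.01 ± 0.09. Kcnk2, Kcnk18 and Kcnk5 had non-overlapping groups, at −0.19 ± 0.09, −0.16 ± 0.07 and −0.08 ± 0.08, the last 2 within background. Kcnk1, Kcnk4 and Kcnk12 were at −0.11 ± 0.13, −0.16 ± 0.16 and −0.08 ± 0.10, and Kcnk7 and Kcnk13 lay within background at −0.06 ± 0.10 and 0.03 ± 0.08.

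**Figure D4:**
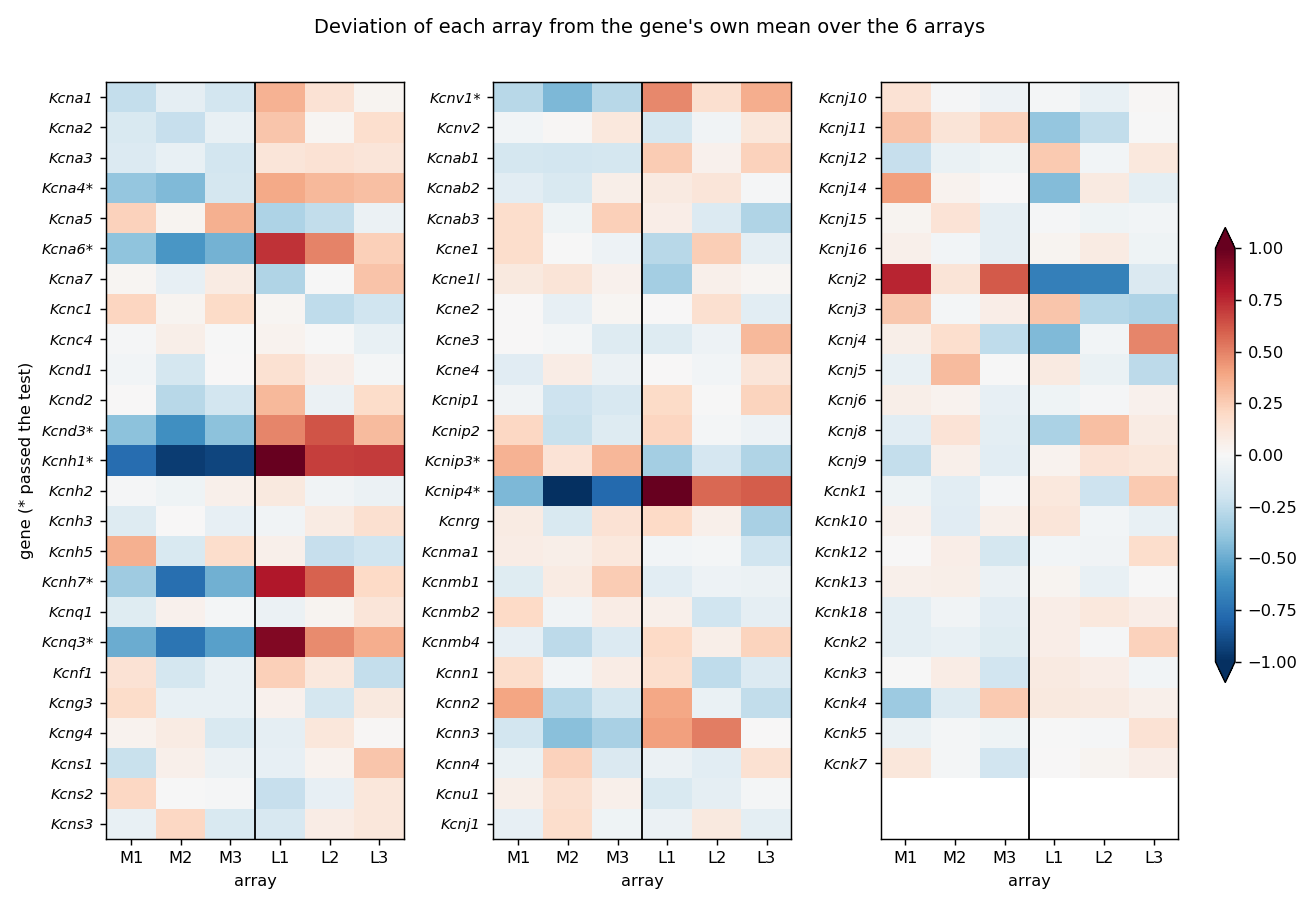
Deviation of each array (columns, M1 to M3 medial and L1 to L3 lateral) from the mean of the gene over the 6 arrays, on the log2 scale, for all 73 genes in 3 panels that run through the channel classes. Blue is below and red above the mean, the colour scale ends at 1 on either side, and the genes that passed are starred. The starred rows other than Kcnip3 are blue in all medial and red in all lateral columns, while most rows of the inward rectifiers and tandem pore channels are pale.

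Proteins that bind, cluster or transport potassium channels were examined through 27 genes not named Kcn, 20 of them measured by a row with 1 symbol. In limma 3 of these passed with lower and 0 with higher levels in medial neurons, where 1.94% and 1.13% of all rows did. The list was chosen with earlier results of these data known, so this count is no test of partner genes as a set. The median log2 difference of the 20 genes was −0.04. Before adjustment 8 of them had a p under 0.05 in limma, where 3130 of the 23332 rows did, and this count is no test of the set either. Lgi1, a secreted protein that binds the Adam22 and Adam23 receptors and modulates Kcna channels, stood at 6.75, 6.69 and 6.76 in the medial and 10.37, 9.74 and 9.99 in the lateral samples. The lateral level was 9.86-fold higher (log2 difference −3.30 ± 0.16, SE, limma adjusted p = 0.000447). Dlg1, a scaffold protein that clusters Kcna channels, was at 8.43, 8.14 and 8.40 and 9.38, 9.17 and 9.19, and Adam23 at 8.93, 8.79 and 8.91 and 9.61, 9.52 and 9.46. Both were higher in all lateral samples, by 1.89-fold and 1.58-fold (log2 differences −0.92 ± 0.11 and −0.66 ± 0.08, SE, limma adjusted p = 0.0102 and 0.0108).

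Further partners of Kcna channels had differences that did not pass: Lgi2 at −0.65 ± 0.16, Dlg2 at −0.56 ± 0.20, Adam22 at −0.31 ± 0.11, Dlg4 at −0.05 ± 0.12, Lgi3 at −0.03 ± 0.14, Cntn2 at 0.20 ± 0.13 and Cntnap1 at 0.04 ± 0.16. Of the partners of Kcnd channels, Dpp6, which speeds their inactivation, had medial values of 10.51, 10.32 and 10.36 and lateral values of 10.81, 10.68 and 10.65 and a difference of −0.32 ± 0.09 (SE, limma adjusted p = 0.171). Its paralog Dpp10 was at −0.01 ± 0.19 with overlapping groups. Ank3, which anchors Kcnq and sodium channels at the axon initial segment, was higher in all medial samples, at 11.89, 11.82 and 11.83 against 11.68, 11.64 and 11.40, but its difference of 0.27 ± 0.10 did not pass (limma adjusted p = 0.282). Amigo1, Vapa and Vapb, partners of Kv2 channels, were at −0.16 ± 0.09, 0.07 ± 0.09 and −0.0035 ± 0.08. The sulfonylurea receptor gene Abcc9, which pairs with Kcnj8 and Kcnj11, lay within background.

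The replicates of a group did not vary alike. In the 8 genes that passed as lower, medial replicate 2 was the lowest medial sample in 8 and lateral replicate 1 the highest lateral sample in 7. In the 64 genes that did not pass, medial replicate 2 was the lowest medial sample in 27 and lateral replicate 1 the highest lateral sample in 24. The 8 genes were picked by the test on these same arrays. This order was not counted over all rows, so it cannot be called particular to them. Lateral replicate 3 was the lowest lateral sample in 5 of the 8 and lateral replicate 2 in the other 3. Whether dissection, sorting or the stage of the embryos had a part in this was not tested. The first principal component of the 73 genes held 76.8% of their variance and placed all medial samples on one side, at −1.66, −2.15 and −1.86, and all lateral samples on the other, at 2.71, 1.69 and 1.27. Genes were not scaled, so those with large differences weigh most. The first component of all rows, with 42.5% of the variance, also placed the groups on opposite sides, so this separation is not particular to the 73 genes.

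**Figure D5:**
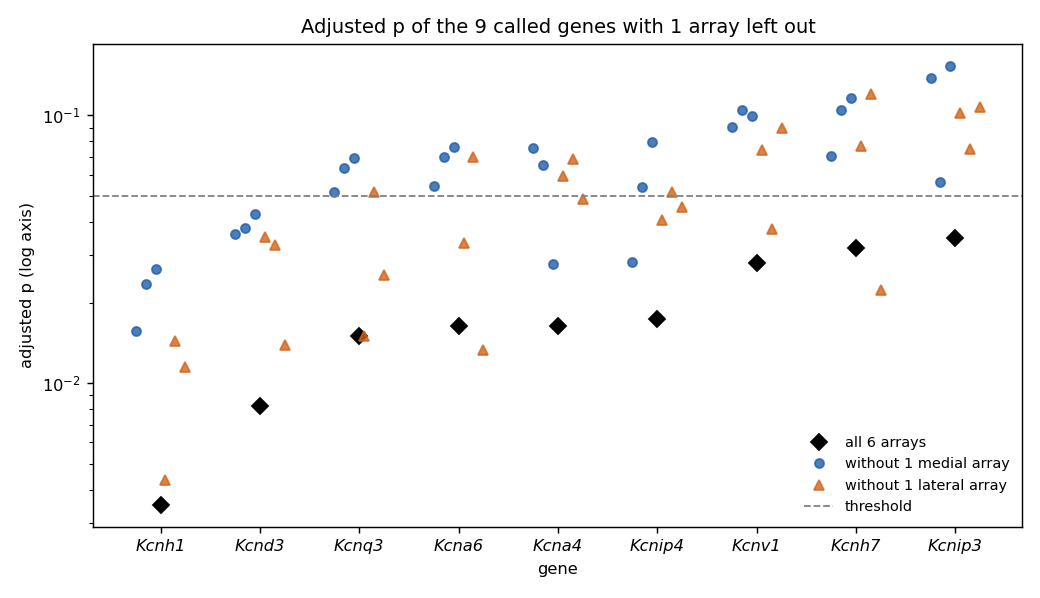
Adjusted p from limma on a log axis (y axis) for the 9 genes that passed (x axis), with all 6 arrays (black diamonds), without 1 medial array (blue circles) and without 1 lateral array (orange triangles). The dashed line is the threshold of 0.05, and in Kcnh1 and Kcnd3 all points lie below it, whereas in Kcnip3 each point from a fit with an array left out lies above it.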

How the data were processed

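Total RNA of sorted HB9::GFP motor neurons was biotinylated with a terminal labelling kit for whole-transcript arrays, per the labels' protocols. The authors deposited 1 table of processed values per array, taken to be log2 expression from their range. Summarization, background correction and normalization are not given in the sources used here, so centring between arrays is unknown. The build named in the submitters' processing notes is mm9.

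Groups and replicate numbers came from the titles. Medial and lateral arrays were compared in limma 3.58.1 (R 4.3.3) by lmFit and eBayes, as a two-sided test without a block. P-values were adjusted by Benjamini and Hochberg's method across the 23332 rows, and 0.05 was the threshold. Errors of differences are standard errors of this fit. The program named in the series design, PowerExpress, was not run. No row was left out. No 2 arrays shared more than 7 identical values. Precision is limited by the number of arrays. The test was tested on simulated data.

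Gene names came from the probe table of the platform, in which 14996 rows had 1 symbol, 1019 had several and 7317 were not listed. All 73 potassium channel genes had an entry in the RefSeq gene table of GRCm38.p6. Every gene that passed or had a fold of at least 1.5, and up to 3 genes of each subfamily with the highest mean, were to be named, together with the channel partner genes that passed and the 2 genes with the smallest p of each column list. The remaining genes are given by level, difference or range. The background bound is the 95th percentile of the row means of 801 olfactory and vomeronasal receptor genes. The members and gene lists were chosen with earlier results of these data known. Alternatives changed the block, normalization, centring, variance prior, array weights, rows tested, the row standing for a gene and the threshold, and left out each array in turn.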

Additional observations from a re-analysis of the deposited data

How the results depend on the processing

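The 9 potassium channel genes that passed became 5 with the replicate number as a block, all lower in medial neurons, while the count over all rows went from 717 to 481. Kcnd3, Kcnh7, Kcna4 and Kcnip3 then had adjusted p-values of 0.0537, 0.0646, 0.0653 and 0.121. Deviations from the group mean correlated between same-numbered medial and lateral samples with r of 0.351, 0.0669 and 0.0151. Between differently numbered samples r ranged from −0.369 to 0.299, and 4 of the 6 samples correlated best with their own number. The sample descriptions also give the medial and the lateral sample of each replicate a common code, and no label says whether it marks a shared preparation. Whether the samples are paired is thus unknown. The main fit did not pair them, and the count of 9 rests on that choice. The other alternatives that kept all arrays gave 8 to 12 potassium channel genes, 0 to 2 of them higher and 7 to 10 lower in medial neurons. With an array left out the count ranged from 2 to 8, and over all rows from 326 to 538. The channel partner genes that passed went from 3 to 5 under quantile normalization and numbered 2 to 4 elsewhere. Of 842 values of single potassium channel genes under alternatives, 793 kept their side of the threshold, 36 lost a call and 13 gained one, and 0 called differences changed sign. Most of the 842 values belong to genes that had no call to lose, and the 36 losses all fell on the 9 genes that passed. The 793 therefore do not measure how firm those 9 calls were. The smallest differences lie within the spread of 3 arrays, and levels below the background bound limit what can be seen of low genes. The cause of these changes was not tested, except that fits with an array left out have fewer samples.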
